A study of Mus musculus with 150 samples.

Results

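The 9 genes described here, Pik3ca, Akt1, Akt2, Stk11, Tsc1, Tsc2, Mtor, Rptor and Rictor, encode central parts of the PI3K, LKB1 and mTOR signalling network, and their DNA copy number was followed in single lung tumour cells of a mouse. They were chosen by name, each as the bin of about 500 kb whose gene list holds the gene. Each gene lay in exactly 1 bin, on 9 different autosomes, so the set covers 9 of the 4806 autosomal bins and 9 of the 29834 gene names listed in the bins used. The cells came from 3 tumours, T1, T7 and T9, of 1 animal, 50 cells from each, taken 30 weeks after tumour induction. All 3 groups share the labelled KP background, with C57BL/6 x Sv129 mixed ancestry and the alleles Trp53flox/flox, Rosa26LSL-tdTomato and Rosa26LSL-Luciferase. The labels name an adenovirus with Cre under the surfactant protein C promoter (AdSPC-Cre) or one with FlpO under the CMV promoter (AdCMV-FlpO) as the means of induction, without saying which this animal received. The labelled source is lung tissue, alveolar type 2 cells, an identity that DNA copy number cannot check. Each group is 1 tumour (n = 1), so no test between tumours was made.

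PI3K, whose catalytic subunit p110 alpha is the product of Pik3ca, makes the lipid signal that recruits and activates the AKT kinases. AKT phosphorylates and inhibits the TSC complex, which otherwise holds back the kinase mTOR through the small GTPase RHEB, and LKB1, the product of Stk11, acts through AMPK to restrain the same step when energy is low. mTOR works in a complex with RAPTOR (mTORC1), which drives protein synthesis and growth, and in another with RICTOR (mTORC2), which phosphorylates AKT. Loss of Stk11 is a well-known event in human lung adenocarcinoma.

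Filters on noise left 47 T1 cells, 48 T7 cells and 50 T9 cells. Sequenced bases in a typical (median) cell amounted to 97.7 Mb for T1, with a range of 20.5 to 170.1, to 69.3 Mb for T7, with a range of 24.6 to 140.3, and to 56.7 Mb for T9, with a range of 43.3 to 82.1. The bin-to-bin noise of a cell had a median of 0.19 for T1, 0.15 for T7 and 0.13 for T9 on the log2 scale, so the T1 profiles were the noisiest although they were the deepest. The bins of the 9 genes held at least 1873 sequenced bases in every cell used. Levels below are log2 ratios relative to the autosomal median of the same cell, averaged over the copy number segment that holds the gene, and a doubling of the whole genome would not show. A gene was called gained in a cell at a segment level of 0.32 or more, which is where 2.5 copies against 2 would stand, and lost at -0.42 or less, where 1.5 copies against 2 would stand. On this scale 1 copy against 2 would stand at -1 and 3 copies against 2 at 0.58. Intervals beside percentages of cells are exact Clopper-Pearson 95% intervals for counting error alone.

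Of the 9 genes, a different one was changed in most cells of each tumour. By the deposited ratio, Mtor was lost in 42 of 47 T1 cells, Tsc1 was gained in 35 of 48 T7 cells and Rptor was lost in 43 of 50 T9 cells. Stk11 was lost in a minority of T1 and T7 cells. The loss of Mtor in T1 was not called in ratios taken from the sequencing depth, whose values are given with that gene. The ratio taken from depth against the median of all cells called Tsc1 gained in 14.6% of T7 cells and 53.2% of T1 cells. By that ratio Stk11 was lost in 6.38% of T1 cells and 18.8% of T7 cells, and Rptor in 80% of T9 cells. A gene was counted for a tumour where 20% of its cells or more carried the call in the deposited ratio. T1 then had 2 of the 9 lost (Stk11 and Mtor) and 0 gained, beside 20.1% of all autosomal bins lost and 8.22% gained by the same rule. T7 had 1 gained (Tsc1) and 1 lost (Stk11), beside 13.6% of bins gained and 2.52% lost. T9 had 1 lost (Rptor) and 0 gained, beside 4.2% of bins lost and 7.07% gained. The counts are read against these shares of bins and single out nothing about the 9 genes as a set. At stricter thresholds of 0.45 and -0.70 the called shares were 29.8% for Mtor in T1, 12.5% for Tsc1 in T7, 10% for Rptor in T9, and 2.13% and 4.17% for Stk11 in T1 and in T7.

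**Figure D1:**
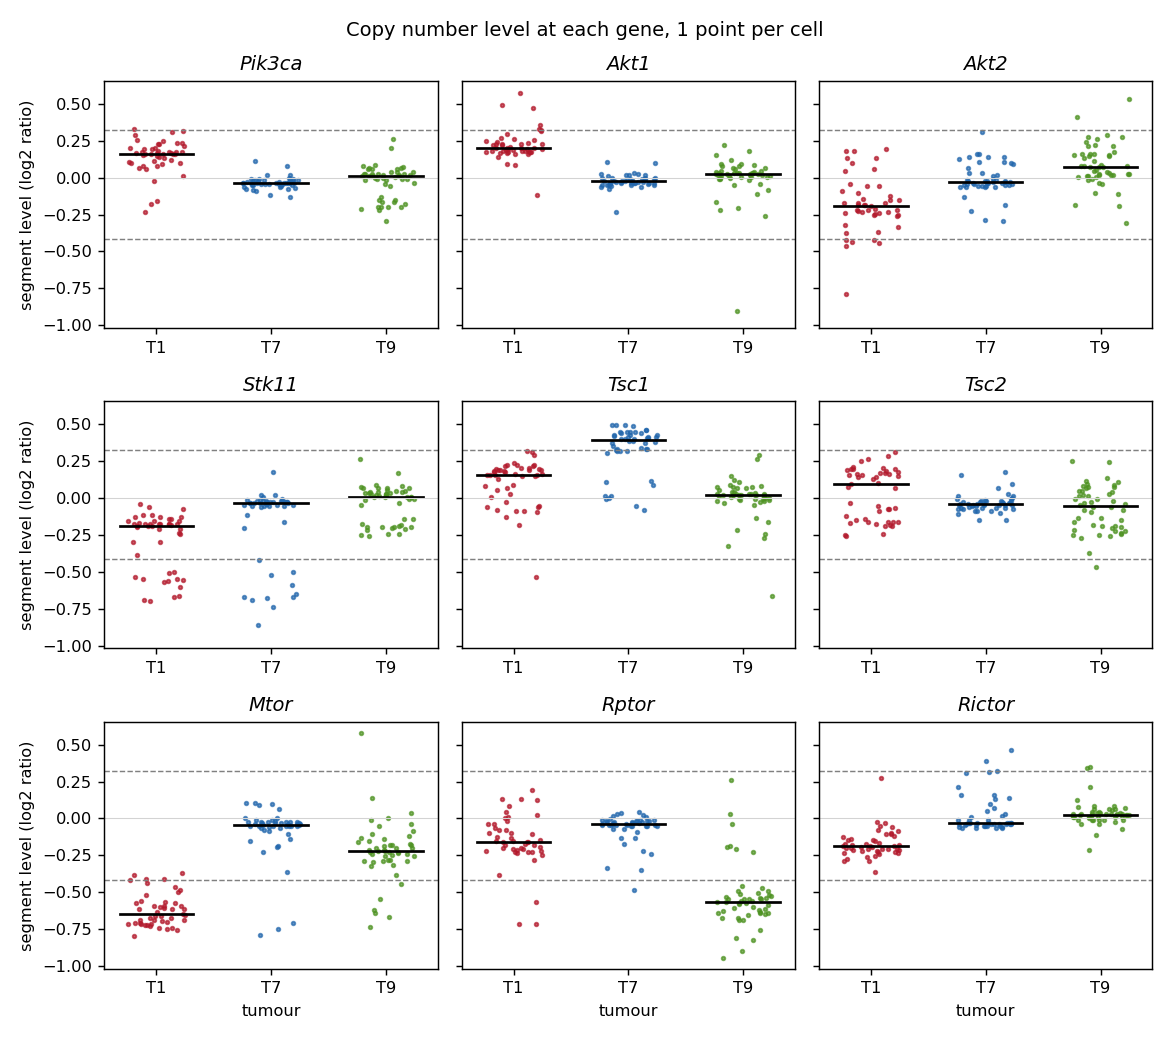
Segment level (log2 ratio, vertical axis) at each of the 9 genes in every cell used, by tumour (horizontal axis); each point is 1 cell, the black bar is the median over cells and the dashed lines are the thresholds of 0.32 for a gain and -0.42 for a loss. Mtor lies at a median of -0.64 in T1, Tsc1 at 0.39 in T7 and Rptor at -0.57 in T9, while Stk11 splits into 2 separate groups of cells in T1 and T7.

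Pik3ca lies on chromosome 3 (32397065 to 32466112, GRCm38.p6). Its level ran between -0.23 and 0.33 in T1 with a median of 0.16, between -0.13 and 0.11 in T7 with a median of -0.04, and between -0.30 and 0.26 in T9 with a median of 0.01. In T1, 43 of 47 cells were above 0, yet 1 cell (2.13%, interval 0.0539 to 11.3) reached the threshold of a gain. No cell of T7 or T9 was called at Pik3ca, for which the exact interval reaches 7.40% in T7 and 7.11% in T9 (by the limit of 3 cells of the total, 6.25% in T7 and 6% in T9). In T9, a scatter of cells formed a lower group, 13 of 50 at or under -0.1.

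Akt1 and Akt2, which encode 2 of the AKT kinases, lay on opposite sides of the cell's typical level in T1 by the deposited ratio. Akt1 lies near the end of chromosome 12 (112653821 to 112674884) and had a level of -0.12 to 0.57 in T1 with a median of 0.20. It was called gained in 6 of 47 T1 cells (12.8%, 4.83 to 25.7), and 46 of the 47 T1 cells were above 0. This share depended on the setting: it was 23.4% with looser thresholds or a running median over 11 bins, 25% in the deeper T1 cells, 55.3% in a ratio taken from depth, 42.6% in that ratio with the trend on genes per bin removed, and 6.38% with stricter thresholds or a higher segmentation penalty. With the whole chromosome's median it was 4.26%. Its medians were -0.03 in T7 (-0.23 to 0.11) and 0.02 in T9 (-0.91 to 0.22), with a single loss in T9. The 6 gains in T1 covered only part of chromosome 12, with a median segment of 59.2 Mb, and all 6 reached the chromosome's last bin.

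In the deposited ratio the Akt1 bin itself stood above its surroundings in T1, and taken alone it was gained in 83.0% of T1 cells. Its own log2 ratio had a median of 0.56 over T1 cells (-0.01 to 1.08) and was at least 0.32 in 39 of 47, against -0.03 in T7 and 0.03 in T9. The neighbouring bin on the side of the centromere was higher still, at 0.71, with 43 of 47 T1 cells at or above 0.32, and the other bins within 4 on either side lay between 0.14 and 0.29. The Akt1 bin exceeded the median of the 5 bins on each side in 45 of 47 T1 cells. This difference was 0.33 ± 0.20 (median and SD over cells) in T1, above that of 98.7% of autosomal bins. Steps of single bins were larger in T1 across the genome, where the same difference had a 99th percentile of 0.34 over autosomal bins, against 0.14 in T7 and 0.17 in T9. In depth the Akt1 bin stood at a log2 of 0.65 over the cell's median bin in T1, against -0.42 in T7 and -0.48 in T9, and the deposited ratio minus this depth was -0.07 in T1 but 0.43 in T7 and 0.46 in T9. The T1 depth itself showed no such step, since the 4 bins before Akt1 and the 1 after it stood at 0.69 to 0.83. A pair of bins is shorter than the 5 bins and 10 Mb required of a segment, so this step formed no segment of its own.

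Akt2 lies on chromosome 7 (27591552 to 27640826) and had a level of -0.78 to 0.20 in T1 with a median of -0.19. Its loss was called in 12.8% of T1 cells (6 of 47, interval 4.83 to 25.7), in segments of 25.2 to 63.3 Mb of which 5 began at the first bin of the chromosome and none reached its end. The median was -0.03 in T7 (-0.29 to 0.31) with no cell called, and 0.07 in T9 (-0.31 to 0.53) with 2 of 50 cells gained. By the deposited ratio, no T1 cell had Akt1 gained and Akt2 lost together, with 6 of 47 cells carrying each change. At 12.8% of cells each, the changes are too rare for this count to tell whether they avoid each other. The difference Akt1 minus Akt2 within a cell, in which the centring cancels, had a median of 0.41 ± 0.24 (SD) in T1 and was above 0 in 46 of 47 cells. The same difference was 0.00 ± 0.12 in T7 and -0.03 ± 0.20 in T9.

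Stk11 encodes LKB1, the kinase upstream of AMPK, and lies on chromosome 10 (80115767 to 80130679) in a bin that lists 39 genes, against a median of 4 over autosomal bins. Its level ran between -0.70 and -0.04 in T1 with a median of -0.19, between -0.86 and 0.18 in T7 with a median of -0.04, and between -0.26 and 0.26 in T9 with a median of 0.01. Losses were called in 27.7% of T1 cells (13 of 47, interval 15.6 to 42.6) and 22.9% of T7 cells (11 of 48, interval 12.0 to 37.3). T9 had 0 of 50 cells called, for which the exact interval reaches 7.11% (by the limit of 3 cells of the total, 6%). In T7 the called cells had a median of -0.67 and the others -0.03, and no cell lay between -0.42 and -0.20. In T1 the medians were -0.56 in the called cells and -0.17 in the others, with no cell between -0.50 and -0.38. The remaining T1 cells were thus themselves below 0, and all 47 T1 cells had a negative level at Stk11.

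The losses of Stk11 took in long stretches of the chromosome. The segment spanned the whole of chromosome 10 in 12 of 13 T1 cells and 6 of 11 T7 cells. In the other 5 T7 cells it began within the chromosome, at the most distal 71685220, and ran to the end. The shortest of the 11 segments in T7 was 58.9 Mb long.

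The T1 cells with Stk11 lost also stood apart in the sequencing depth, and those of T7 did so in part. When each cell's depth was set against the median of the same tumour, the 13 T1 cells called lost were exactly the 13 lowest, at -0.42 to -0.27, and the next cell stood at -0.13. In T7, 10 of the 11 called cells were among the 11 lowest, but the groups touched: the called cells reached up to -0.085 and the others down to -0.090, around medians of -0.60 and 0.05. Against the threshold of -0.42 this ratio called 2.13% of T1 cells and 16.7% of T7 cells, so the lowest cells were nearly the same as in the deposited ratio while the number past the threshold was smaller. A ratio taken from depth against the median of all cells called the loss in 6.38% of T1 cells, and in 27.7% after each cell's trend of depth on the number of genes per bin was taken out.

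Tsc1 and Tsc2 encode the subunits hamartin and tuberin of the TSC complex, the brake on mTORC1. Tsc1 lies on chromosome 2 (28640993 to 28691172) and had a level of -0.08 to 0.50 in T7 with a median of 0.39. Its median was 0.16 in T1 (-0.53 to 0.32) and 0.02 in T9 (-0.66 to 0.29). The gain was called in 72.9% of T7 cells (35 of 48, interval 58.2 to 84.7) and in no cell of T1 or T9 by the deposited ratio, each of which had 1 cell with a loss. That the 35 called T7 cells lay above every cell of T1 and T9 follows from these calls. The margin was small, with the lowest called T7 cell at 0.327 and the highest T1 cell at 0.317.

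The number of T7 cells called at Tsc1 is sensitive to the threshold. The lowest called cell stood at 0.327 and the highest uncalled one at 0.322, and 10 of the 48 cells lay within 0.05 of the threshold. All 35 gained segments began at the first bin of chromosome 2, and their median end was at 172002946, with 1 that reached the last bin. The typical gained segment was 169 Mb long and the shortest 37.5 Mb, so the gain reached far beyond the surroundings of Tsc1. In unadjusted depth the Tsc1 bin stood at a log2 of 0.27 over the cell's median bin in T7 and -0.09 in T9, where the deposited ratio differed from the depth by similar amounts (0.13 in T7 and 0.15 in T9). A ratio taken from depth, set against the median of all cells, placed Tsc1 at 0.17 in T7, 0.35 in T1 and -0.30 in T9 and called a gain in 14.6% of T7 cells, and in 6.25% with the trend on genes per bin removed. The same ratios called Tsc1 gained in 53.2% and 25.5% of T1 cells, shares above those of T7.

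Tsc2, on chromosome 17 (24595816 to 24632676), was called by the deposited ratio in 1 cell in all, lost in T9. The ratio taken from depth against all cells called Tsc2 gained in 29.8% of T1 cells. With the trend on genes per bin removed, Tsc2 was gained in 6.38% of T1 cells and lost in 8.51%. Its median level was 0.10 in T1 (-0.26 to 0.31), -0.04 in T7 (-0.15 to 0.17) and -0.05 in T9 (-0.47 to 0.25). In T1, the segment level was above 0 in 26 cells and below in 21, and the direction turned with the measure: the running median over 11 bins had a median of -0.08 (17 above, 30 below) and the bin alone -0.13 (14 above, 33 below, 23.4% of cells lost). The bins around Tsc2 (a running median over 11 bins) lay below the median of chromosome 17 in T1 (44 of 47 cells, median difference -0.14) and in T9 (49 of 50 cells, median difference -0.11). Tsc1 minus Tsc2 within a cell was 0.42 ± 0.21 in T7, 0.02 ± 0.28 in T1 and 0.04 ± 0.22 in T9, so the genes of the 2 subunits differed in copy number level in T7 cells, of which 44 of 48 had more of Tsc1.

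**Figure D2:**
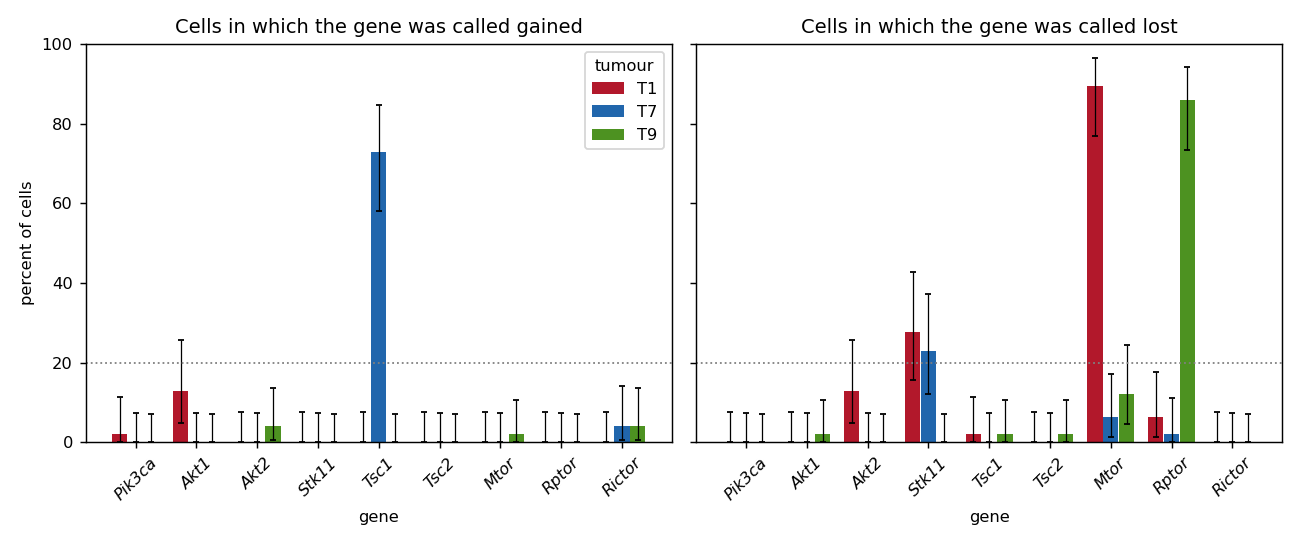
Percent of the cells used in each tumour (vertical axis) in which each gene (horizontal axis) was called gained (left) or lost (right); error bars are exact Clopper-Pearson 95% intervals and the dotted line marks 20% of cells. The bars past the line are Tsc1 gained in T7 (72.9%), Stk11 lost in T1 (27.7%) and T7 (22.9%), Mtor lost in T1 (89.4%) and Rptor lost in T9 (86%).

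Mtor encodes the kinase shared by both mTOR complexes and lies 7.5 Mb from the last bin of chromosome 4 (148448582 to 148557685). In the deposited ratio its level ran between -0.79 and -0.37 in T1 with a median of -0.64, a ratio of 0.640 to the cell's typical bin. The medians were -0.04 in T7 (-0.79 to 0.11) and -0.22 in T9 (-0.74 to 0.58). Losses of Mtor were called in 89.4% of T1 cells (42 of 47, interval 76.9 to 96.5), 6.25% of T7 cells (3 of 48, interval 1.31 to 17.2) and 12% of T9 cells (6 of 50, interval 4.53 to 24.3). A gain was called in 1 T9 cell. The 5 T1 cells without a call stood at -0.41 to -0.37, just inside the threshold, so every T1 cell was low.

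The losses at Mtor differed in extent. In T1 the segment was the whole of chromosome 4 in 36 of 42 cells. In T7 all 3 were distal pieces of 21.3 to 21.8 Mb, and in T9 all 6 were partial, with a median of 18.1 Mb, and every one of these 9 segments reached the end of the chromosome. The most centromeric start in T9 was at 75854106.

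The loss of Mtor in T1 was called in the deposited ratio and not in ratios taken from depth. In depth the Mtor bin stood at a log2 of -0.30 over the cell's median bin in T1, -0.11 in T7 and -0.25 in T9, and the deposited ratio minus this depth had a median of -0.46 in T1 but 0.05 in T7 and 0.09 in T9. A ratio taken from depth against the median of all cells gave a segment level of -0.10 at Mtor in T1 and called 0 of its cells lost, although the median over the whole of chromosome 4 was -0.44 by the same ratio and -0.69 by the deposited one. After each cell's trend of depth on the number of genes per bin was taken out, the level at Mtor in T1 was -0.15, again with 0 cells called. Across autosomal bins, the depth ratio rose with genes per bin in T1 (Spearman's rho 0.41 over 4806 bins, as a description) and fell with it in T7 (-0.15) and T9 (-0.42), while the deposited ratio had a rho of -0.12 in T1 and of -0.02 in both T7 and T9. The part of this difference between libraries in the Mtor level of T1 was not tested.

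Rptor encodes RAPTOR, the defining subunit of mTORC1, and lies 2.0 Mb from the last bin of chromosome 11 (119602905 to 119899591). Its level ran between -0.94 and 0.26 in T9 with a median of -0.57, a ratio of 0.675. The medians were -0.16 in T1 (-0.72 to 0.20) and -0.04 in T7 (-0.48 to 0.04). Losses of Rptor were called in 86% of T9 cells (43 of 50, interval 73.3 to 94.2), 6.38% of T1 cells (3 of 47, interval 1.34 to 17.5) and 2.08% of T7 cells (1 of 48, interval 0.0527 to 11.1). In T9 no cell lay between -0.46 and -0.23, so the 7 cells without the loss stood clear of the others.

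The T9 loss lay at the end of chromosome 11. None of the 43 segments covered the whole chromosome, their median length was 22.9 Mb with a median start at 99034872, and all 43 reached the last bin. The bins around Rptor minus the chromosome's median came to -0.50 ± 0.16 (median and SD) in T9, below 0 in 49 of 50 cells, against 0.00 ± 0.06 in T7 and 0.12 ± 0.11 in T1. The 3 T1 losses were of the whole chromosome instead. Depth showed the T9 loss as well: the Rptor bin stood at a log2 of -0.70 in T9 and -0.09 in T7, and the ratio from depth with the trend on genes removed called it in 78% of T9 cells. The same ratio put Rptor at 0.36 in T1 and called it gained in 63.8% of T1 cells. The deposited value in T1 was -0.16, so the level of Rptor in T1 has no settled sign.

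**Figure D3:**
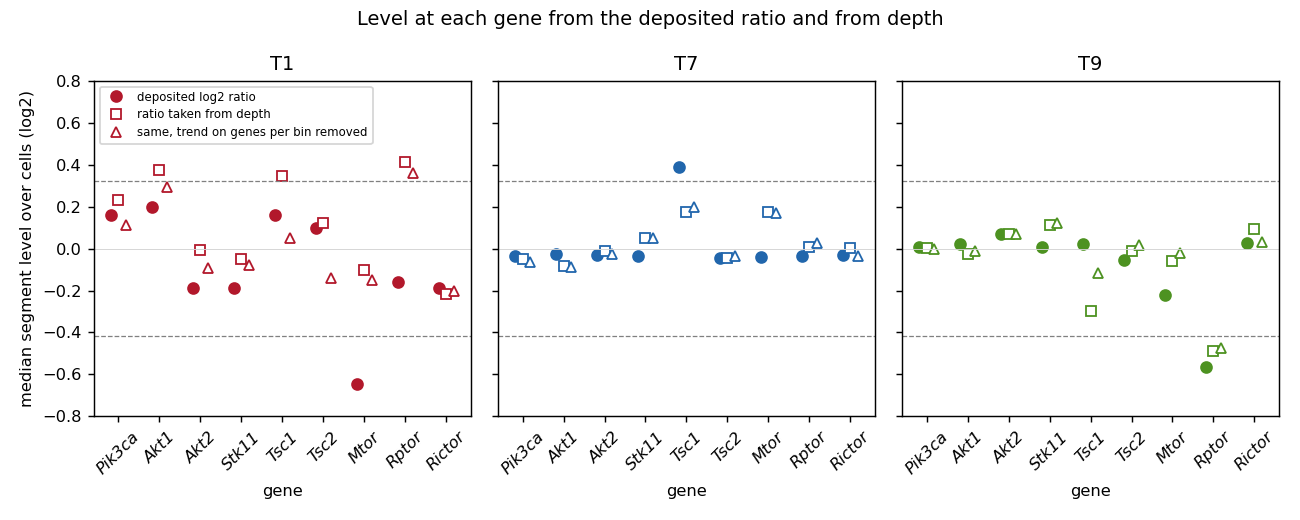
Median segment level over cells (log2, vertical axis) at the 9 genes (horizontal axis) in T1, T7 and T9 from the deposited log2 ratio (filled circles), from a ratio taken from depth (open squares) and from the same with each cell's trend on genes per bin removed (open triangles); dashed lines are the call thresholds. At Mtor and Rptor in T1 the depth measures lie near each other and far from the deposited ratio. The measures also differ at Tsc1 in each tumour, and all 3 lie close together at Rptor in T9.

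**Figure D4:**
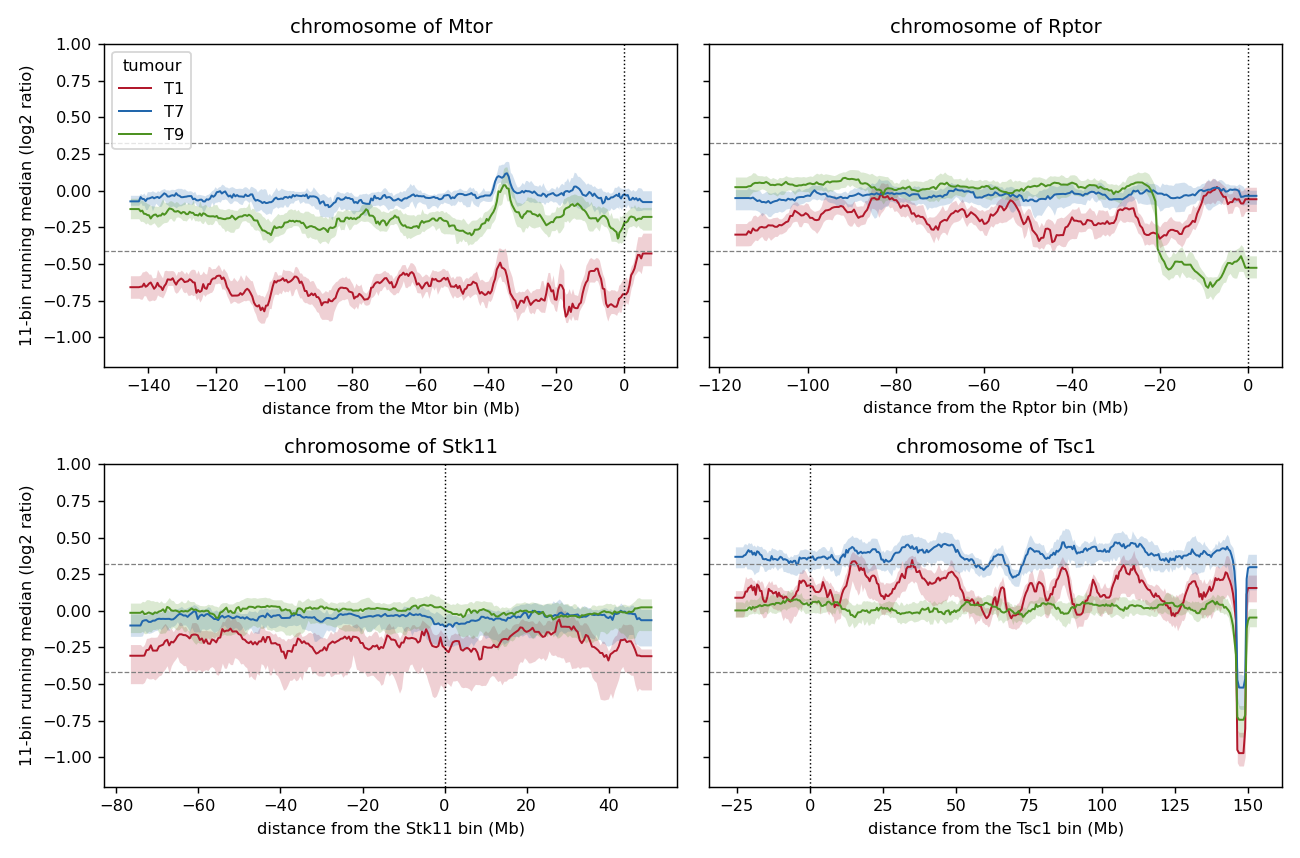
Running median over 11 bins (log2 ratio, vertical axis) along the chromosomes of Mtor, Rptor, Stk11 and Tsc1 against the distance from the gene's bin in Mb (horizontal axis); lines are medians over the cells of a tumour, shaded bands span the lower to the upper quartile of cells and dashed lines are the call thresholds. The T9 line on the chromosome of Rptor drops about 20 Mb before the gene and stays low to the end, while the T1 line on the chromosome of Mtor and the T7 line on that of Tsc1 are shifted along nearly their whole length.

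Rictor, which defines mTORC2, is 3.5 Mb from the first bin of chromosome 15 (6708349 to 6800401). Its level had a median of -0.19 in T1 (-0.37 to 0.27), -0.03 in T7 (-0.07 to 0.46) and 0.03 in T9 (-0.21 to 0.35). Rictor was gained in 2 of 48 T7 cells (4.17%, 0.509 to 14.3) and 2 of 50 T9 cells (4%, 0.488 to 13.7) and lost in no cell. Both T7 gains spanned all of chromosome 15. No T1 cell was called at Rictor, though 46 of 47 were below 0.

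Within cells of T9, the genes of the complex subunits RICTOR and RAPTOR differed. The differences in this paragraph use the deposited ratio. Rictor minus Rptor was 0.61 ± 0.20 in T9, above 0 in 49 of 50 cells, against 0.00 ± 0.18 in T7 and -0.01 ± 0.17 in T1. In the ratio taken from depth the T1 medians lay apart, at -0.22 for Rictor and 0.42 for Rptor. The T9 medians there were 0.10 and -0.49. Mtor minus Rptor was 0.35 ± 0.24 in T9, above 0 in 44 of 50 cells, and -0.48 ± 0.19 in T1, below 0 in 44 of 47. Over all 36 pairs of the 9 genes the median size of this difference came to 0.33 for T1, 0.01 for T7 and 0.08 for T9, and it was at least 0.2 for 23 pairs in T1, 8 pairs in T7 and 14 pairs in T9. The T7 pairs were the 8 that contain Tsc1, whose differences from the other genes were 0.41 or 0.42 in size.

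The deposited levels in T1 fell into steps. Mtor stood at a median of -0.64, then Stk11, Akt2 and Rictor at -0.19 and Rptor at -0.16, and then Tsc2 at 0.10, Pik3ca and Tsc1 at 0.16 and Akt1 at 0.20. Neighbours within a step differed by less than the SD over cells of either gene. The quartiles of the segment level over all autosomal bins were -0.19 and 0.17 in T1, so the 2 upper steps lie at levels that were common in this tumour. In T7 all genes but Tsc1 had a median between -0.04 and -0.03, and in T9 all genes but Mtor and Rptor had one between -0.05 and 0.07.

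**Figure D5:**
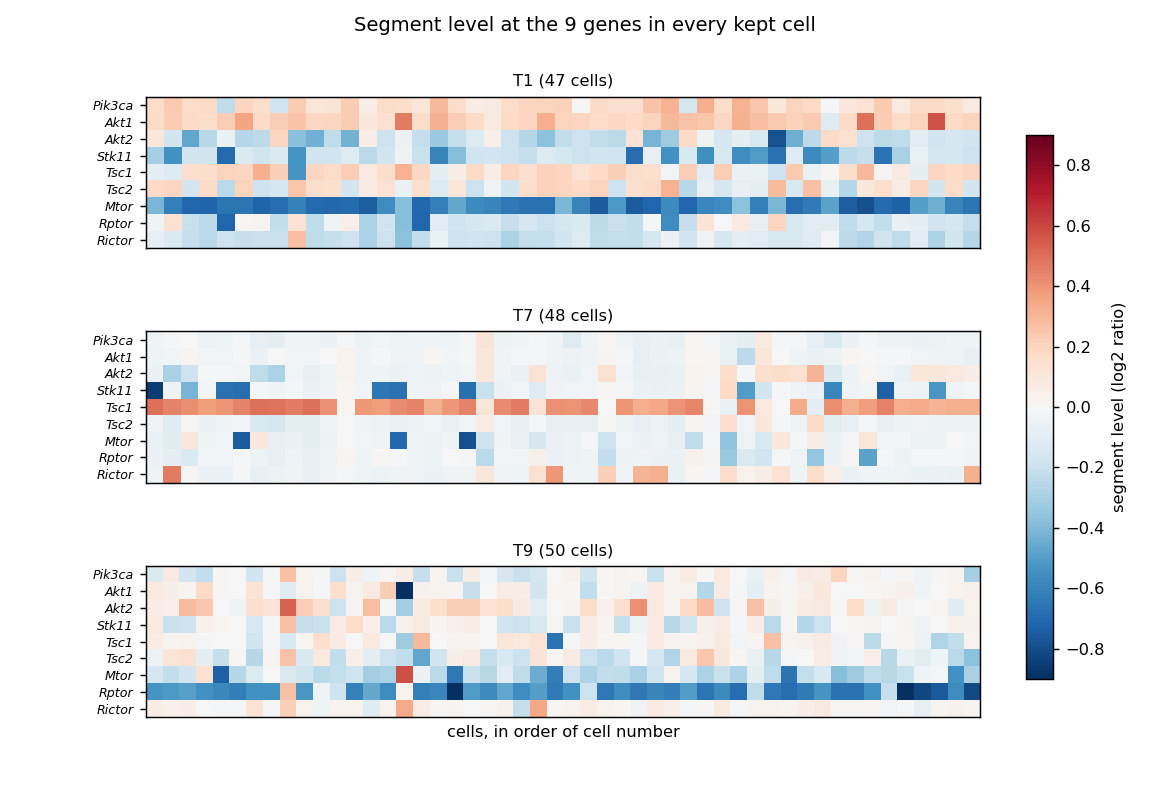
Segment level (log2 ratio, colour scale; red above and blue below the cell's autosomal median) at the 9 genes (rows) in every cell used (columns, in order of cell number) of T1, T7 and T9. Mtor in T1, Tsc1 in T7 and Rptor in T9 form nearly unbroken rows, and losses of Stk11 are scattered over T1 and T7.

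By the deposited ratio, each cell carried few calls among the 9 genes, at most 3 in every tumour, with a median of 1. In T1, Mtor lost and nothing else was the state of 21 of 47 cells (44.7%, 30.2 to 59.9), followed by Stk11 and Mtor lost in 7, Akt2 and Mtor lost in 5 and Akt1 gained with Mtor lost in 4. Only 2 T1 cells had no call, and there were 12 distinct states. In T7, Tsc1 gained alone was found in 22 of 48 cells (45.8%, 31.4 to 60.8), no call in 12 and Stk11 lost with Tsc1 gained in 7, among 7 states. In T9, Rptor lost alone was found in 35 of 50 cells (70%, 55.4 to 82.1), no call in 5 and Mtor lost with Rptor lost in 4, among 9 states.

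Overlaps of the minority changes with the common one, all by the deposited ratio, are given beside the share of all cells that had the common change. Of the 11 T7 cells with Stk11 lost, 10 also had Tsc1 gained, where 35 of all 48 had that gain. All 3 T7 cells with Mtor lost had both Stk11 lost and Tsc1 gained. All 6 T9 cells with Mtor lost also had Rptor lost, which 43 of all 50 had, and 11 of the 13 T1 cells with Stk11 lost had Mtor lost, as did 42 of all 47. In T1, 5 of the 6 cells with Akt2 lost and 4 of the 6 with Akt1 gained had Mtor lost. Whether any overlap exceeds the share over all cells was not tested. In T9 the low groups at Pik3ca and Stk11, at or under -0.1, were 13 and 16 cells and shared 5.

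Grouped by role, the 6 genes that promote signalling (Pik3ca, Akt1, Akt2, Mtor, Rptor and Rictor) were lost in 51 of 282 gene and cell combinations in T1 (18.1%), 4 of 288 in T7 (1.39%) and 50 of 300 in T9 (16.7%). Over all autosomal bins and cells, losses took up 14.5% of combinations in T1, 2.31% in T7 and 6.29% in T9, and gains 7.19% in T1, 9.99% in T7 and 6.44% in T9. Mtor made up 42 of the losses in T1 and Rptor 43 of those in T9, so the count of each tumour rests mostly on 1 gene. All these counts use the deposited ratio. The ratios taken from depth, without and with the trend removed, called Mtor lost in 0% of T1 cells. They called Rptor lost in 80% and 78% of T9 cells. Gains of the 6 promoting genes numbered 7 for T1, 2 for T7 and 5 for T9. The 3 genes that restrain signalling (Stk11, Tsc1 and Tsc2) were gained in 35 of 144 combinations in T7 (24.3%), all of them Tsc1, and lost in 14 of 141 in T1 (9.93%), 11 of 144 in T7 (7.64%) and 2 of 150 in T9 (1.33%). These combinations share cells and chromosomes and are counts, not independent events.

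A wider list of 83 genes of the network held 79 that were measured on autosomes. In T1, 20 of the 79 (25.3%) were lost in 20% of cells or more, on chromosomes 4, 9, 10 and 13, and 1 was gained, beside 20.1% of all autosomal bins lost and 8.22% gained. The ratio taken from depth gave 10 lost and 23 gained in T1 instead, so this count depends on the ratio used. That ratio subtracts the median of all cells, which is itself low where most T1 and T9 cells share a loss. Pik3cb, Sik2 and Nprl2 were lost in most cells of both tumours by the deposited ratio. How far this lowered the count of losses was not tested. Sik2 and Sik3, kinases activated by LKB1, had the highest share of losses in T1, 97.9% each at a median level of -0.64. The chromosome 4 losses that included Mtor also held Pik3cd (the delta catalytic subunit of PI3K), the Rag GTPase genes Rraga, Rragc and Rragd, Sesn2, Prkaa2, Rps6 and Pik3r3, at medians of -0.69 to -0.64. On chromosome 10, which holds Stk11, Foxo3, Ddit4, Sesn1, Eif4ebp2 and Sgk1 were each lost in 12 of 47 T1 cells (25.5%) and Nuak1 in 13 (27.7%). Irs2, an insulin receptor substrate, was the gained gene, in 15 of 47 T1 cells (31.9%).

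In T7, 2 of the 79 (2.53%) were gained and 1 (1.27%) lost, each on the chromosome of a changed member, beside 13.6% of all autosomal bins gained and 2.52% lost. Mapkap1, the mTORC2 subunit SIN1, was gained in 35 of 48 cells at a median of 0.39, and Prr5l, whose product binds mTORC2, in 34 (70.8%) at 0.39. Nuak1, a kinase that LKB1 activates, was lost in 11 of 48 T7 cells, as Stk11 was. In T9, 4 of the 79 (5.06%) were lost and 2 (2.53%) gained, beside 4.2% of all autosomal bins lost and 7.07% gained. Strada, whose product is the pseudokinase partner of LKB1, was lost in 42 of 50 cells (84%) at a median of -0.57 on the segment of Rptor. Pik3cb (the beta catalytic subunit of PI3K), Sik2 and Nprl2 (a subunit of the GATOR complex that restrains mTORC1) on chromosome 9 were each lost in 47 of 50 T9 cells (94%). On the same chromosome Sik3 was gained in 45 (90%) and the sestrin gene Sesn3 in 44 (88%). The ratio taken from depth gave 1 gene of the list lost and 2 gained in T9. Its reference is the median of all cells, and most T1 cells were also lost at Pik3cb, Sik2 and Nprl2. The effect of this on the T9 count was not tested.

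For each member, the gene with the most similar level was sought on its own chromosome and on the others. By the mean absolute difference of the running level over 145 cells, the nearest on the same chromosome were Pik3cd to Mtor (0.032, 0.986 Mb away), Prkaa1 to Rictor (0.023, 1.49 Mb), Gsk3a to Akt2 (0.043, 2.0 Mb) and Mapkap1 to Tsc1 (0.073, 5.5 Mb). Each running level is a median over neighbouring bins. The windows of Pik3cd, Prkaa1 and Gsk3a share most of their bins with those of Mtor, Rictor and Akt2. Small differences for these pairs follow in part from that overlap and are no separate sign of similar copy number. Mlst8, which encodes a subunit of both mTOR complexes, lies in the same bin as Tsc2 and cannot be told apart from it here. Strada was nearest to Rptor (0.12, 13.5 Mb), Foxo1 to Pik3ca (0.073, 19.7 Mb) and Sesn1 to Stk11 (0.089, 38.2 Mb). Pik3cg, the single candidate on the chromosome of Akt1, differed from it by 0.093 at a distance of 80.5 Mb. On other chromosomes the smallest difference from Mtor was 0.22 (Nprl2) and from Stk11 0.17 (Castor1).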

How the data were processed

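Single-cell genomic DNA libraries of 3 tumours of 1 mouse were read from the deposited tables, with cells assigned to tumours by their titles. The submitters' processing notes name BWA 0.7.17 and the build GRCm38. The deposited depth table holds the coverage signal of 5331 bins, per the file headers. The deposited log2 table holds a log2 ratio per bin and cell, and which correction and reference the authors used is not stated. The deposited weight score per bin was read as a description and entered no call.

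Bins with depth in at least 80% of cells (5149) and cells with noise of at most 0.267 were kept, which left out 3 T1 cells, 2 T7 cells and no T9 cell. Each cell was centred on its autosomal median and segmented by least-squares partitioning where each break cost 3 times ln(bins) in noise units and a segment needed 5 bins and 10 Mb. The segmentation was run on shifts of known size planted in the cells used, after their own segment levels were subtracted. The outcome of that run is not given here. The depth ratio is the log2 of depth over the cell's median bin, minus the median of that over all cells, and the trend on genes per bin was fitted by lowess in each cell. These depth ratios with a trend removed or with the same tumour as reference were chosen after seeing the data. No doublet caller was run, and cells are not replicates of a tumour. The 9 genes, the wider list of 83 genes and the thresholds were chosen with earlier results of these data known. Of the wider list, 82 genes were found, 2 of them by an older symbol, and 3 lie on X. The genes named from it are the 2 with the highest share in each tumour and direction (3 where tied), those on a called segment of a member, and the nearest to each member by level. RefSeq (GRCm38.p6) gave the gene positions. Software was matplotlib 3.10.9, numba 0.67.0, statsmodels 0.14.6, scipy 1.17.1, pandas 2.3.3 and numpy 2.4.6 under Python 3.11.15. 1 item of the mouse model is not reported here.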

Additional observations from a re-analysis of the deposited data

How the results depend on the processing

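Of 270 comparisons of a gene's level with its value under 10 other settings, 257 moved by less than the SD over cells and 13 by more. The sign changed in 20, of which 5 also moved by more than the SD: in the ratio taken from depth Rptor in T1 (0.42), Tsc1 in T9 (-0.30) and Mtor in T7 (0.17), and Tsc2 in T1 by the running median (-0.08) and the bin alone (-0.13). Of the genes called in 20% of a tumour's cells, Stk11 in T7 changed sign, at 0.051 in the ratio taken from depth. Stricter thresholds (0.45 and -0.70) left Stk11 lost in 2.13% of T1 and 4.17% of T7 cells, Tsc1 gained in 12.5% of T7 cells, Mtor lost in 29.8% of T1 cells and Rptor lost in 10% of T9 cells; of the 9 genes, 1 was then lost in T1, 0 gained and 0 lost in T7 and 0 lost in T9, and of the wider list 8 were lost in T1 and 0 gained and 0 lost in T7. Looser thresholds (0.25 and -0.30) put Mtor lost in 100% of T1 cells and gave 1 of the 9 genes and 9 of the wider list gained in T1, and centring on the mode put Mtor lost in 97.9%. The ratio taken from depth gave Stk11 lost in 6.38% and Mtor lost in 0% of T1 cells and Tsc1 gained in 14.6% of T7 cells. It had 5 of the 9 genes (Pik3ca, Akt1, Tsc1, Tsc2 and Rptor) gained and 0 lost in T1 and 0 gained and 0 lost in T7, and of the wider list 23 gained and 10 lost in T1, 0 lost in T7 and 1 lost in T9. With the trend on genes removed, an alternative chosen after seeing the data, Tsc1 was gained in 6.25% of T7 cells and Mtor lost in 0% of T1 cells, with 3 of the 9 genes gained and 1 lost in T1 and 0 gained in T7, while Stk11 was lost in 27.7% of T1 and 20.8% of T7 cells and Rptor in 78% of T9 cells. With the same tumour as reference, Stk11 was lost in 2.13% of T1 cells. The running median over 11 bins gave 1 of the 9 genes gained in T1, 0 lost in T7 and 7 of the wider list gained in T1. Bins taken alone gave 1 of the 9 genes gained in T1 and 0 lost in T7, with 14 of the wider list gained and 32 lost in T1 and 7 lost in T9. The median of the whole chromosome put Rptor lost in 0% of T9 cells, since the loss covers only its end, with 0 of the 9 genes lost in T7 and T9 and 0 of the wider list gained in T1, lost in T7 or gained in T9. The deeper cells of each tumour gave 1 of the 9 genes and 2 of the wider list gained in T1. Asking for 10% of cells gave 1 gained in T1 and 2 lost in T9, and asking for 50% gave 1 lost in T1 and 0 lost in T7. Where no value shows it, the cause of these changes was not tested. No paired analysis was possible because the tumours share no cell number and no test was made. The median depth per base was 0.0383 for T1, 0.0270 for T7 and 0.0221 for T9, and how depth limits the calls was not tested.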
